A study of Mus musculus with 6 samples.

Results

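The antiviral genes induced by type I interferon were followed in mouse liver at 2 ages. The group holds 41 genes chosen by symbol, among 32597 rows of the authors' gene table, and all 41 were found there. The study compared adult livers of 6 months with young livers, both from male wild type C57BL/6 mice, an inbred laboratory strain, bought from a breeder and kept under specific pathogen-free conditions. The young age appears as 3 weeks in the sample titles, 3 to 4 weeks in the age field and 1 month in the series title. Each age had 3 libraries, and each library pooled the liver RNA of 3 mice. If no mouse entered more than 1 library, 9 mice stand behind each value. Levels are in FPKM, which is fragments per kilobase of transcript scaled for library size. The sources used here do not give the exact scaling. The authors gave 1 FPKM value per gene and age, without values per library. No standard deviation can therefore be given, and the depth of each library is unknown beyond the average of around 30000000 reads in the labels. Only the authors' own test takes the spread between libraries into account. Changes are given as log2((adult FPKM + 1)/(young FPKM + 1)), which understates the change of low genes. "Rose" and "fell" are used only for a q-value, which is a p-value adjusted for multiple testing, under 0.05 by the authors' deposited table.

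Cells that detect viral RNA or DNA release type I interferons, which act on neighbouring cells through the receptor of Ifnar1 and Ifnar2. The kinases Jak1 and Tyk2 then activate STAT proteins, of which Stat2 joins Irf9 in ISGF3, the factor that binds interferon-stimulated response elements in the promoters of antiviral genes. Many of these genes are also expressed at a basal level in uninfected tissue, and hepatocytes respond to type I interferon. Type II interferon, Ifng, comes mainly from T and NK cells and acts mainly through another element, called GAS, and the gene sets of the 2 types overlap.

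C57BL/6 mice are a limited model for some of these genes, since common laboratory strains, C57BL/6 among them, carry defective alleles of Mx1 and Mx2, and C57BL/6 carries a truncated Oas1b. The deposited table itself lists Mx2 and Oas1b as polymorphic pseudogenes. As for the tissue, the hepatocyte markers Ttr and Apoa1 were at 5951 and 6800 FPKM in adult and at 8081 and 7868 FPKM in young liver. The albumin gene, Alb, was listed at 0 at both ages with the status LOWDATA, so a 0 in this table can be a failed estimate. In bulk tissue, fewer cells of a type and less RNA per cell cannot be told apart.

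The promoter windows below are shown because the genes that fell in adult liver can be set beside them. They run from 250 bases before to 50 after the RefSeq start of a gene on GRCm38.p6, written 5′ to 3′ on the gene's own strand. Capitals mark every match to the core of the response element, taken as GAAA, any 2 bases and GAAA again, read on both strands, and overlapping matches run into each other. Shown are the 4 members that fell, then Ifit1, from the same gene cluster as Ifit3, and Bst2, the member with the highest level. They lie at chr4:156200769-156201068 on the minus strand for Isg15, chr12:26456403-26456702 on the minus strand for Rsad2, chr4:40239776-40240075 on the minus strand for Ddx58, chr19:34583279-34583578 on the plus strand for Ifit3, chr19:34640639-34640938 on the plus strand for Ifit1 and chr8:71537423-71537722 on the minus strand for Bst2.
Isg15: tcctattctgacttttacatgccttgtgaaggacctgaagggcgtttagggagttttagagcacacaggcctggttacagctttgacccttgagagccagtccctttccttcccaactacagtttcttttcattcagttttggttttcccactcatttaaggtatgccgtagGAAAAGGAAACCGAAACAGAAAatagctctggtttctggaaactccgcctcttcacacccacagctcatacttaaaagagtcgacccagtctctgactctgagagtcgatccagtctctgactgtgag
Rsad2: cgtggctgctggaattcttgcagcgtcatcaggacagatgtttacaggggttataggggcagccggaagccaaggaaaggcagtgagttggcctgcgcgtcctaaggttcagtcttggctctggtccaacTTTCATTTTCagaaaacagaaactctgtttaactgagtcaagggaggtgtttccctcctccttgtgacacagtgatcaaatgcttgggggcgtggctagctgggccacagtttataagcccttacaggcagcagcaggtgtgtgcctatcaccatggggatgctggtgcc
Ddx58: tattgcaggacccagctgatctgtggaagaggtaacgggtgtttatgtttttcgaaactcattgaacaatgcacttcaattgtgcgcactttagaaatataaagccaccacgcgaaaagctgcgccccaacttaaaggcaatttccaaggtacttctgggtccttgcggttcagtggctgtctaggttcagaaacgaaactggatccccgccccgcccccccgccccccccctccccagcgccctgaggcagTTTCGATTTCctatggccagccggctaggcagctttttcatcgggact
Ifit3: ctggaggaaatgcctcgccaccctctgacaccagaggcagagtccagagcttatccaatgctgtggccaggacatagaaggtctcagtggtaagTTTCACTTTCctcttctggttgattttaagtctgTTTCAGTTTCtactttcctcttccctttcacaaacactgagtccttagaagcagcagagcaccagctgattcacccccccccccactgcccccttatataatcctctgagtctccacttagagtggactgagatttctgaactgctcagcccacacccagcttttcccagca
Ifit1: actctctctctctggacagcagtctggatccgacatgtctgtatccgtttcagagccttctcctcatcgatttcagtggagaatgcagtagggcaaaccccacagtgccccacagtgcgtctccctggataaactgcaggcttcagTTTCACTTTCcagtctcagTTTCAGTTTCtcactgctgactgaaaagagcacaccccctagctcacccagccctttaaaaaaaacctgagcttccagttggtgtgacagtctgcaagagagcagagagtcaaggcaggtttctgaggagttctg
Bst2: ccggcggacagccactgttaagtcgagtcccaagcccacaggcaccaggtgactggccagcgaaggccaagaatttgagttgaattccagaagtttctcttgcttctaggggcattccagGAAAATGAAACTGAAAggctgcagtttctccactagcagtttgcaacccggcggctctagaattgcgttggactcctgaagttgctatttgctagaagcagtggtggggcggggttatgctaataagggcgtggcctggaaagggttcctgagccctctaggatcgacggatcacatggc
The Isg15 window holds 3 overlapping matches that begin 78, 72 and 66 bases upstream of the first transcribed base. Ifit3 holds 2, at 156 and 122 bases upstream, and Ifit1 holds 2, at 104 and 85. Rsad2 has 1 match 120 bases upstream. The match of Ddx58 lies just after the start.

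Of the 41 genes, 37 reached 1 FPKM, all of them at both ages, and are counted below. Mx1, Oas1b, Oas2 and Oas3 stayed under 1 FPKM at both ages. In adult liver 4 of the 37 fell, namely Isg15, Rsad2, Ddx58 and Ifit3, and 3 rose, namely Ifi27l2b, Zbp1 and Ifi27. Together they are 18.9% of the members compared, against 7.47% of the 11741 genes compared in the whole table. In the rising direction the share was 8.11% of members against 3.99% of all genes, and in the falling direction 10.8% against 3.48%. The other 30 members were not called. The folds of the 37 ran from -0.91 to 1.45 on the log2 scale with a median of -0.16, while the median of all genes compared was 0.0033. A negative fold was found in 24 of the 37, or 64.9%, against 49.5% of all genes. At an unadjusted p under 0.05 in the authors' deposited table, 10 members were lower in adult liver and 3 were higher, which is 27.0% and 8.11% of the members. The same shares of all genes were 7.55% and 8.51%.

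**Figure D1:**
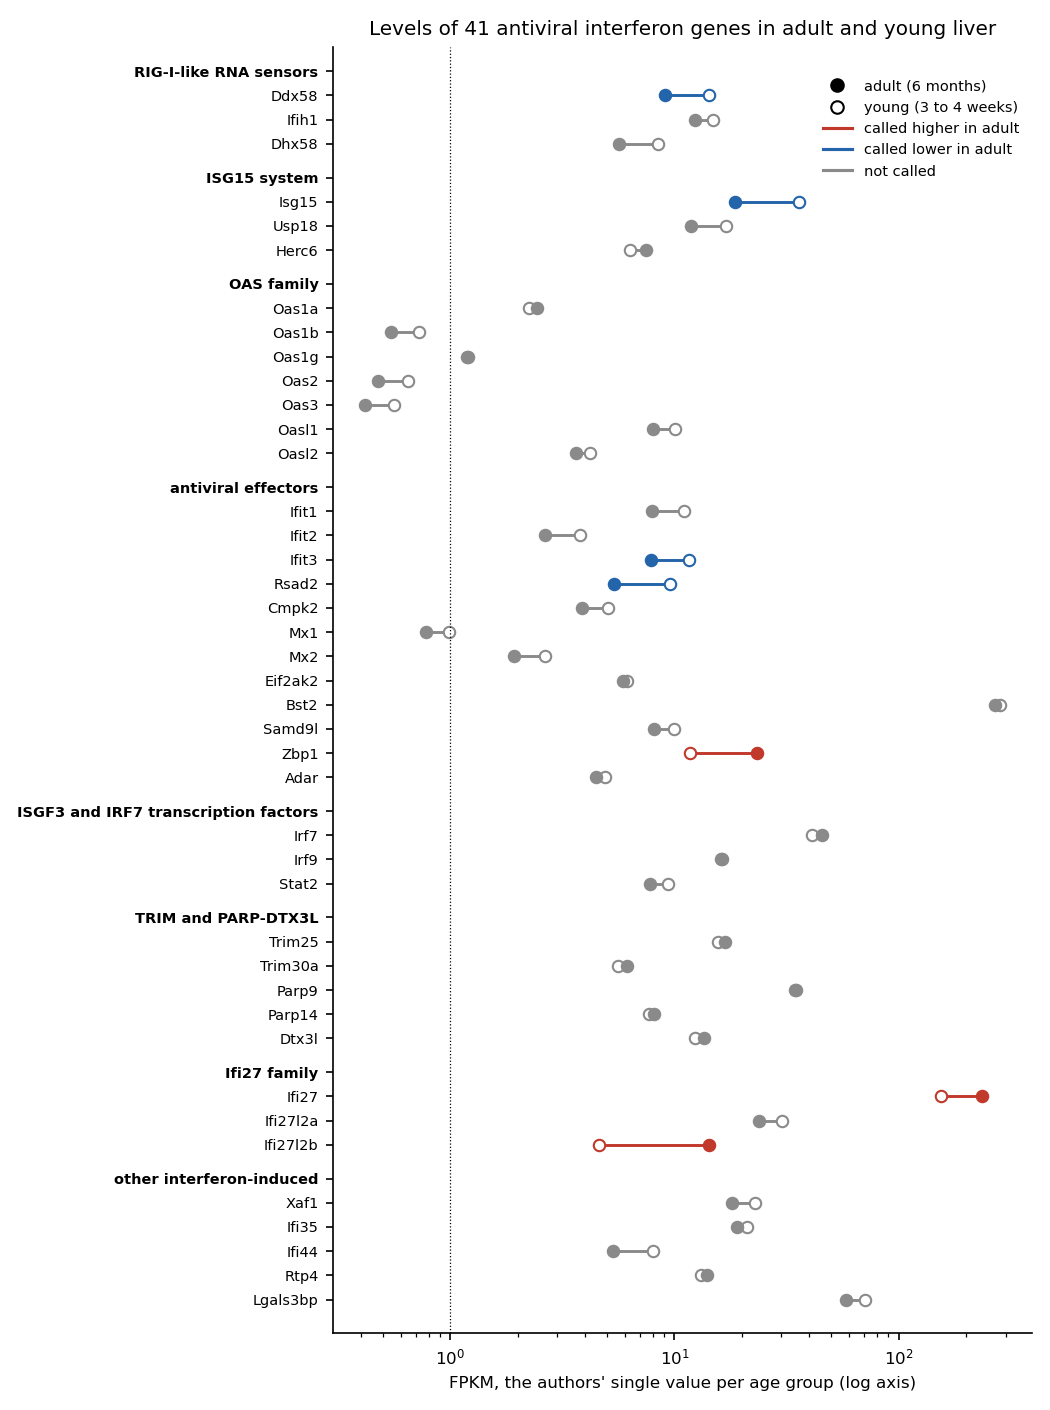
Levels of all 41 genes by role, on a log axis of FPKM. Filled points are the adult value and open points the young value, the line joins them and its colour gives the authors' call, and the dotted line marks 1 FPKM. Isg15, Rsad2, Ddx58 and Ifit3 lie lower in adult liver, Zbp1, Ifi27 and Ifi27l2b higher, and Bst2 and Ifi27 stand above all others at both ages.

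The levels of the members spanned a wide range at both ages. In adult liver the order from the top was Bst2 at 268 FPKM, Ifi27 at 236, Lgals3bp at 58.3, Irf7 at 45.3 and Parp9 at 35.0 FPKM. In young liver the same order began with Bst2 at 284 FPKM, Ifi27 at 154 and Lgals3bp at 70.6, followed by Irf7 at 41.1, Isg15 at 36.0 and Parp9 at 34.5 FPKM. With 18.6 FPKM in adult liver, Isg15 stood below Parp9, Ifi27l2a, Zbp1 and Ifi35. The lowest member at both ages was Oas3, at 0.416 FPKM in adult and 0.563 FPKM in young liver. Summed over the 41 genes, the level was 959 FPKM in adult and 944 FPKM in young liver, a sum dominated by Bst2 and Ifi27. The median over the 37 genes compared was 8.14 FPKM in adult and 11.1 FPKM in young liver, while that over all genes compared was 7.28 FPKM in adult and 7.16 FPKM in young liver. Neighbours in these orders were not tested against each other.

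The RIG-I-like receptors are helicases that bind viral RNA in the cytoplasm, and RIG-I and MDA5 signal through the adaptor Mavs. All 3 had lower values in adult liver and 1 of them fell. Ddx58, which encodes RIG-I and binds short RNA with a triphosphate end, was at 9.10 FPKM in adult and 14.3 FPKM in young liver, a log2 fold of -0.60 (q = 0.00629, the authors' deposited table). Ifih1, which encodes MDA5 and binds long double-stranded RNA, was at 12.4 FPKM in adult and 14.9 FPKM in young liver. Dhx58, which encodes LGP2, a regulator of the other two, was at 5.63 FPKM in adult and 8.46 FPKM in young liver. The fold of Dhx58, -0.51, was close to that of Ddx58, but the authors' deposited table gave it a q-value of 0.628, and Ifih1 one of 0.673. The median fold of the receptors was -0.51. The adaptor Mavs, which is no member, was at 24.6 FPKM in adult and 26.8 FPKM in young liver (q = 0.930, the authors' deposited table).

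The ISG15 system attaches a small ubiquitin-like protein to other proteins and removes it again. Isg15, the modifier itself, was at 18.6 FPKM in adult and 36.0 FPKM in young liver. Its log2 fold of -0.91 was the most negative of all members (q = 0.00189, the authors' deposited table, which holds no smaller q). On GRCm38, Isg15 lies on chromosome 4 at 156199424 to 156200818. Usp18, the protease that removes ISG15 and also damps signalling at the interferon receptor, was at 11.9 FPKM in adult and 17.0 FPKM in young liver. Its log2 fold was -0.48, and of the q-values given to members by the authors' deposited table, its 0.0505 was the first above the threshold. Herc6, the main ISG15 ligase of the mouse, was at 7.48 FPKM in adult and 6.34 FPKM in young liver, with a fold of 0.21 (q = 0.644, the authors' deposited table). The activating and conjugating enzymes Uba7 and Ube2l6, which are no members, were not called. Uba7 was at 6.22 FPKM in adult and 6.70 FPKM in young liver, and Ube2l6 at 92.3 FPKM in adult and 94.4 FPKM in young liver (q = 0.997 for each, the authors' deposited table).

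Among the 12 effector genes, 11 were compared, and 10 of these had lower values in adult liver. Of them, 2 fell and 1, Zbp1, rose. Rsad2, which encodes viperin, an enzyme that makes a chain-terminating nucleotide, was at 5.38 FPKM in adult and 9.51 FPKM in young liver, a fold of -0.72 (q = 0.00189, the authors' deposited table). Cmpk2, a nucleotide kinase whose gene lies next to Rsad2 on chromosome 12, was at 3.88 FPKM in adult and 5.07 FPKM in young liver. The authors' deposited table gave it a p-value of 0.0412 and a q-value of 0.335. Zbp1, a sensor of Z-form nucleic acid that can trigger cell death, went the other way, with 23.4 FPKM in adult and 11.7 FPKM in young liver. Its log2 fold was 0.94 and its q-value 0.00189 in the authors' deposited table, and it lies on chromosome 2 at 173206612 to 173218923.

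The Ifit genes encode proteins with tetratricopeptide repeats that bind RNA, and they lie together within 99.3 kb of chromosome 19, at 34550694 to 34650009. Ifit3, whose human counterpart stabilizes IFIT1, was at 7.85 FPKM in adult and 11.6 FPKM in young liver and fell (q = 0.0323, the authors' deposited table), the called member nearest to the threshold. Ifit1, which recognizes foreign RNA caps, was at 7.93 FPKM in adult and 11.1 FPKM in young liver. Ifit2 was at 2.63 FPKM in adult and 3.79 FPKM in young liver. The folds of Ifit3, Ifit1 and Ifit2 were -0.51, -0.44 and -0.40, so a narrow range of values lay on both sides of the threshold, with q-values of 0.0655 for Ifit1 and 0.0969 for Ifit2 in the authors' deposited table. Ifit3 has a near-identical copy, Ifit3b, named I830012O16Rik in the table, with which it can share reads. This copy was at 1.75 FPKM in adult and 2.87 FPKM in young liver and fell as well (q = 0.0330, the authors' deposited table).

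The remaining effectors were not called. Bst2, which encodes tetherin, a membrane protein that holds budding viruses back, was at 268 FPKM in adult and 284 FPKM in young liver, a fold of -0.081. Eif2ak2, which encodes the kinase PKR that stops translation, was at 5.88 FPKM in adult and 6.13 FPKM in young liver. Adar, the enzyme that edits adenosine to inosine in double-stranded RNA, was at 4.47 FPKM in adult and 4.91 FPKM in young liver. The authors' deposited table gave these 3 q-values from 0.937 to 0.997. Samd9l, a restriction factor of poxviruses, was at 8.08 FPKM in adult and 9.92 FPKM in young liver (q = 0.511, the authors' deposited table). The GTPase gene Mx2 was at 1.92 FPKM in adult and 2.63 FPKM in young liver, with a p-value of 0.0307 (q = 0.280, the authors' deposited table). Mx1 was at 0.776 FPKM in adult and 0.989 FPKM in young liver. The median fold of the effectors compared was -0.31.

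**Figure D2:**
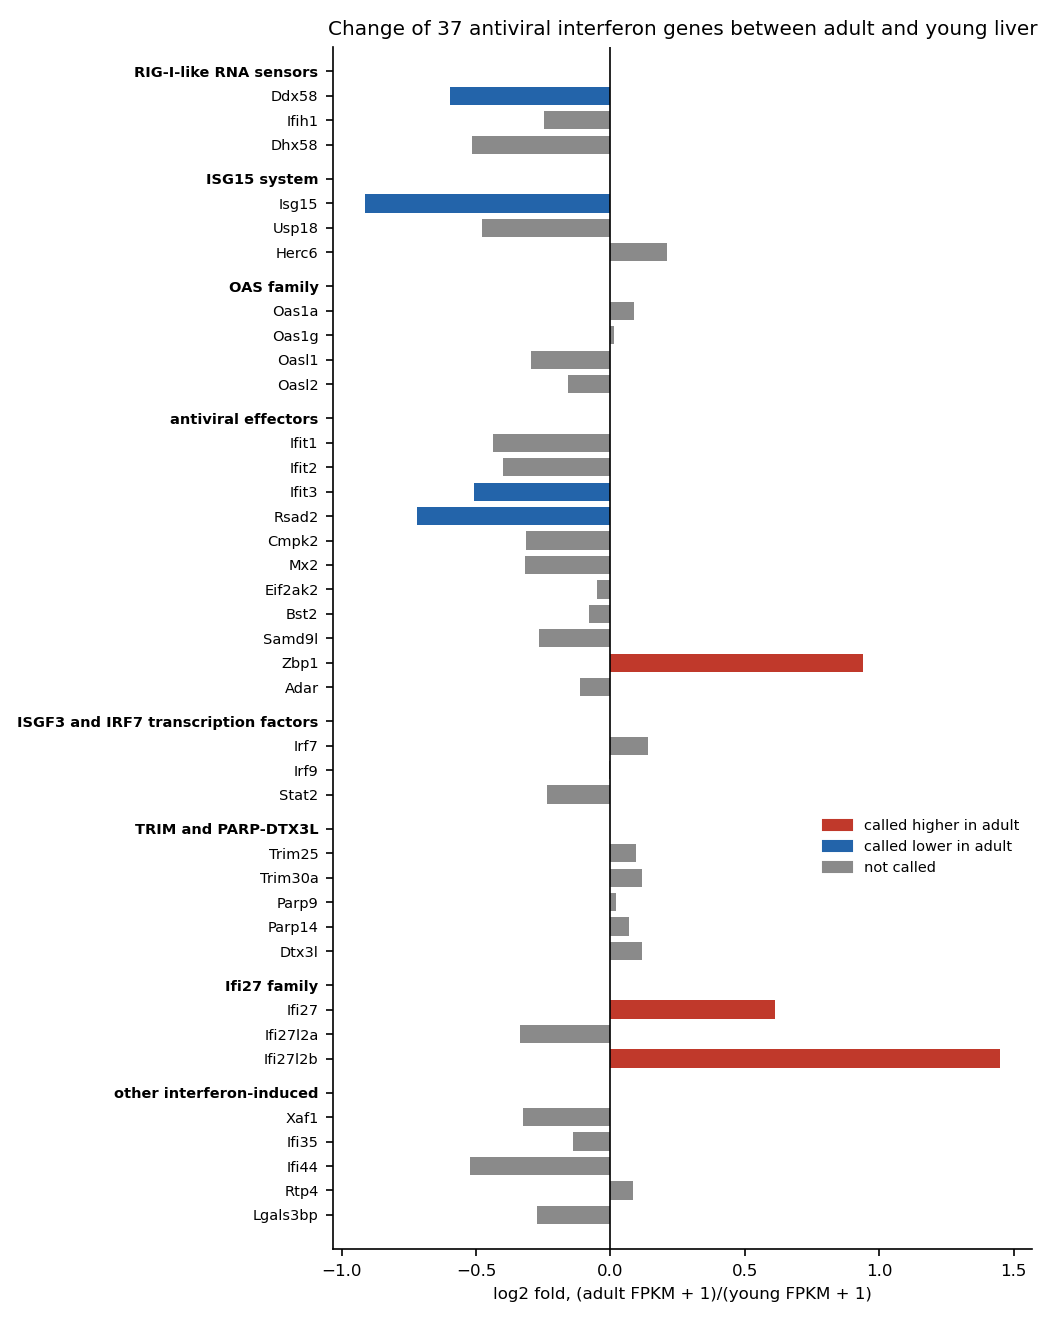
Log2 fold of the 37 members compared, grouped by role. Bars to the left of 0 are lower in adult than in young liver, bars to the right are higher, and the colour gives the authors' call. All 3 sensors and 10 of the 11 effectors compared lie to the left, Zbp1 being the exception, while all 5 TRIM and PARP-DTX3L members lie slightly to the right.

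Set side by side, the sensors had 1 of 3 genes fallen and a median fold of -0.51, the effectors 2 fallen and 1 risen of 11 with a median of -0.31, and the ISG15 genes 1 of 3 fallen with a median of -0.48. None of the sensors and none of the ISG15 genes rose. With 1 value per age, the differences between these groups could not be tested. The division also depends on what is called a sensor. When the 13 members whose proteins bind double-stranded or Z-form RNA were grouped, 10 of them were compared, with 1 risen, 1 fallen and a median of -0.14. Leaving out members with related copies, among the effectors Ifit1, Ifit3, Mx1 and Mx2, moved the median of the effectors to -0.19.

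The OAS enzymes are switched on by double-stranded RNA and make short oligoadenylates that set off the decay of RNA. None of the 4 compared was called by the authors' test (Cuffdiff), none of them was at an unadjusted p under 0.05 either, and their folds ran from -0.30 to 0.086. Oasl1, a catalytically inactive member that limits Irf7 translation in the mouse, was at 8.00 FPKM in adult and 10.05 FPKM in young liver. Oasl2 was at 3.64 FPKM in adult and 4.18 FPKM in young liver. Oas1a was at 2.45 FPKM in adult and 2.25 FPKM in young liver, and its neighbour Oas1g at 1.20 FPKM in adult and 1.18 FPKM in young liver. Oas2 was at 0.474 FPKM in adult and 0.645 FPKM in young liver, and Oas1b at 0.542 FPKM in adult and 0.726 FPKM in young liver. The authors' deposited table gave the 7 OAS genes q-values from 0.607 for Oas3 to 0.997 for Oas1g. Copies of Oas1 lie in a row within 177 kb of chromosome 5 and can share reads, so the split between them is uncertain.

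The 3 transcription factors that drive the group were not called, and none was at an unadjusted p under 0.05. Irf7, which amplifies interferon production, was at 45.3 FPKM in adult and 41.1 FPKM in young liver. Irf9, the DNA-binding subunit of ISGF3, was at 16.2 FPKM at each age, a fold of -0.0057. Stat2, the subunit that activates transcription, was at 7.80 FPKM in adult and 9.35 FPKM in young liver. Their q-values were 0.963, 0.997 and 0.532 in the authors' deposited table.

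The TRIM and PARP-DTX3L members had the narrowest spread, with folds from 0.019 to 0.12 and no gene called or at an unadjusted p under 0.05. The ubiquitin ligase Trim25, which is known to act on RIG-I, was at 16.7 FPKM in adult and 15.6 FPKM in young liver. Trim30a was at 6.12 FPKM in adult and 5.58 FPKM in young liver. Parp9 was at 35.0 FPKM in adult and 34.5 FPKM in young liver, its partner the ubiquitin ligase Dtx3l at 13.5 FPKM in adult and 12.4 FPKM in young liver, and the ADP-ribosyltransferase Parp14 at 8.14 FPKM in adult and 7.72 FPKM in young liver. The authors' deposited table gave them q-values from 0.955 to 0.997. Parp9 and Dtx3l overlap by 682 bases on opposite strands, and Dhx58, Oasl1, Eif2ak2, Irf7, Trim30a and Ifi35 also overlap a gene on the opposite strand. The sources used here do not say whether the counting used strand, so reads of these overlaps cannot be told apart.

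The Ifi27 genes encode small hydrophobic proteins and lie within 23.0 kb of chromosome 12, at 103434211 to 103457223. Here 2 of 3 rose and the one between them did not. Ifi27l2b was at 14.3 FPKM in adult and 4.60 FPKM in young liver, a fold of 1.45, the highest of all members (q = 0.00189, the authors' deposited table). Ifi27, the most abundant of the family, was at 236 FPKM in adult and 154 FPKM in young liver, a fold of 0.61 (q = 0.01005, the authors' deposited table). Ifi27l2a was at 23.7 FPKM in adult and 30.2 FPKM in young liver, a fold of -0.34 (q = 0.509, the authors' deposited table). Ifi27l2a and Ifi27l2b are close copies whose reads may be shared.

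The last 5 members have varied or less known roles, and none was called, with 1, Ifi44, at an unadjusted p under 0.05. It was at 5.30 FPKM in adult and 8.06 FPKM in young liver, and its fold of -0.52 was the largest in size of any member not called. The authors' deposited table gave a q-value of 0.0864. Xaf1, which favours cell death, was at 18.1 FPKM in adult and 22.9 FPKM in young liver, Ifi35 at 19.0 FPKM in adult and 20.9995 FPKM in young liver, and the secreted glycoprotein gene Lgals3bp at 58.3 FPKM in adult and 70.6 FPKM in young liver. Rtp4, a chaperone of membrane receptors, was at 13.9 FPKM in adult and 13.1 FPKM in young liver. The authors' deposited table gave these 4 q-values from 0.613 to 0.979.

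**Figure D3:**
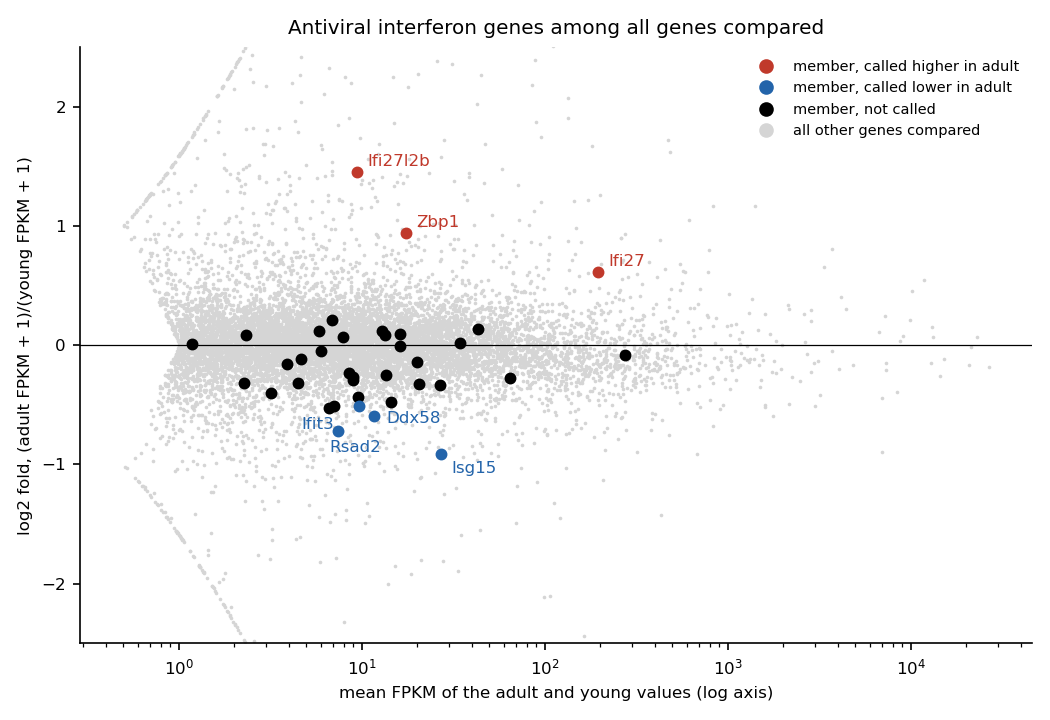
Log2 fold against mean FPKM on a log axis for the 11741 genes compared, with members in colour or black and all other genes in grey. Called members are named, and 104 genes lie beyond the vertical range of 2.5 in either direction. The uncalled members lie within the band of most genes, 20 of them below 0 and 10 above it, and the folds of Isg15 (-0.91) and Ifi27l2b (1.45) are the lowest and highest among the members.

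Promoter windows were found for 28 members by symbol. Those of Ifi27, Ifi27l2a, Ifi27l2b, Zbp1, Usp18, Dhx58, Oas1b, Oas2, Mx1, Mx2, Parp9, Parp14 and Rtp4 were not found. The response element core was present in 13 of the 28 windows, against 3.44% of all 32851 windows of the table. All 4 members that fell held it, and so did 8 of the 23 windows of members compared and not called, among them Bst2, Ifih1, Stat2 and Oas1a. No member that rose had a window, so fallen and risen members could not be set side by side. In the window of Oas3, which was under 1 FPKM, 1 match was found. The GAS pattern TTCNNNGAA, which is its own reverse complement, was present in 5 of the 28 windows, those of Bst2, Eif2ak2, Ifi35, Ifit2 and Oas1a, and in 8.30% of all windows. In Bst2 it overlaps the first match to the core by 3 bases. Where a gene had more than 1 window, the one whose RefSeq start lay nearest the 5′ end of the gene in the deposited table was taken. The bases after the RefSeq start were found in a GENCODE transcript of the same gene for 21 of the 28 windows. For the 4 fallen members this start lay at most 3 bases from the deposited 5′ end. For Irf9, Lgals3bp and Dtx3l, uncalled and without a core match, it lay 414, 133 and 124 bases away. Whether such offsets lower the count of matches was not tested. A match is a description of the letters and not of binding.

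**Figure D4:**
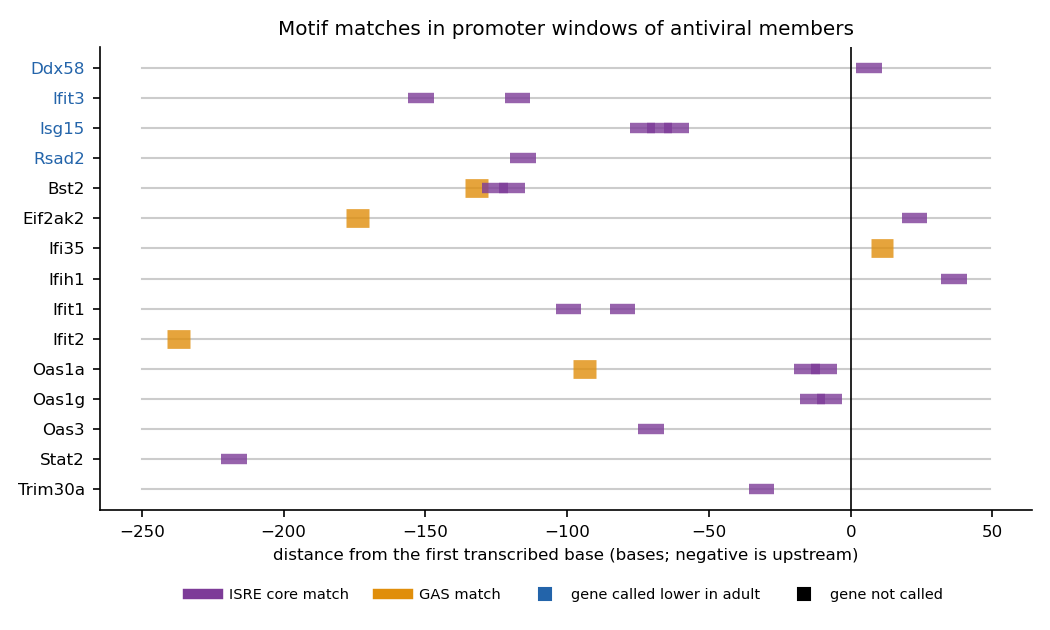
Positions of matches to the response element core (purple) and to the GAS pattern (orange) in the promoter windows of the 15 members with a match, by distance from the first transcribed base. Gene names in blue are the members that fell in adult liver and names in black those not called. The 4 fallen genes carry the core, at distances that run from 156 bases upstream in Ifit3 to just after the start in Ddx58.

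The genes upstream of the members were examined as lists. Of the interferon genes themselves, 17 of 21 were in the table, none reached 1 FPKM, and 13 were listed at 0 in adult and 14 in young liver. The most abundant in adult liver was Ifng, at 0.318 FPKM in adult and 0.0490 FPKM in young liver (q = 0.431, the authors' deposited table). Ifnb1 was at 0.0105 FPKM in adult and 0.0128 FPKM in young liver. In the list of receptors and JAK-STAT genes, 2 of 13 compared rose and none fell or was lower at an unadjusted p under 0.05, with a median fold of -0.038. The feedback inhibitors Socs3, at 6.03 FPKM in adult and 1.57 FPKM in young liver, and Socs1, at 1.26 FPKM in adult and 0.242 FPKM in young liver, rose (q = 0.00189 for each, the authors' deposited table). Socs1 reached 1 FPKM only in adult liver, so it was among the genes compared only through the age at which it was higher. The receptor chains Ifnar1 and Ifnar2 were at 9.05 and 58.3 FPKM in adult and at 9.47 and 59.9 FPKM in young liver, and the kinases Jak1 and Tyk2 at 25.2 and 4.24 FPKM in adult and at 26.6 and 4.48 FPKM in young liver. The authors' deposited table gave these 4 q-values from 0.993 to 0.997. The other receptor chains, kinases and inhibitors of the list were not called, among them Ifngr1, at 11.7 FPKM in adult and 14.7 FPKM in young liver, Ifngr2, at 10.7 FPKM in adult and 8.76 FPKM in young liver, and Jak2, at 5.67 FPKM in adult and 5.13 FPKM in young liver. Il10rb, Ptpn2, Ptpn6 and Pias1 were at 5.22, 7.60, 15.8 and 4.36 FPKM in adult and at 4.90, 8.05, 14.8 and 4.82 FPKM in young liver, and Ifnlr1 was under 1 FPKM at both ages.

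Genes of nucleic acid sensing upstream of interferon gave no call among 16 compared, by the authors' test, with 1 at an unadjusted p under 0.05 and a median fold of 0.048. The factor Irf3, which switches on interferon genes, was at 27.5 FPKM in adult and 28.0 FPKM in young liver. Of 6 interferon regulatory factors compared outside the members, 1 rose. This was Irf1, at 21.1 FPKM in adult and 12.6 FPKM in young liver (q = 0.00189, the authors' deposited table). In the list of ISG15 conjugation partners, none of 5 genes compared was called, also none at an unadjusted p under 0.05, and the median was -0.033. Of 39 other interferon-stimulated genes compared, 1 rose and 3 fell, with a median of 0.0098. At an unadjusted p under 0.05 in the authors' deposited table, 6 of them were higher and 8 lower, or 15.4% and 20.5%. Of the higher ones, Sp110 and Slfn8 reached 1 FPKM only in adult liver and so were compared only through their adult values. They were at 1.47 and 1.35 FPKM in adult and at 0.914 and 0.916 FPKM in young liver. The fallen ones were the restriction factor Ifitm3, at 579 FPKM in adult and 831 FPKM in young liver, the galectin Lgals9, at 342 FPKM in adult and 529 FPKM in young liver, and Ifit3b. The risen one was the immunoproteasome subunit Psmb8, at 44.7 FPKM in adult and 27.0 FPKM in young liver.

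A list of genes led by Ifng was set beside the members. Like the members, it was chosen with earlier results of these data known. Of 19 compared, 17 rose and none fell, with a median fold of 0.89. The risen share was 89.5%, against 3.99% of all genes compared. By their deposited coordinates some genes of this list overlap and can share reads, so they are not all separate readings. These are Gbp4, Gbp8 and Gbp9, then Igtp and Irgm2, and Gbp5 with Gbp7 and Gbp3. Of the 37 antiviral members, 3 rose, 4 fell and the median was -0.16. The folds of the 8 called genes that moved most, Tgtp1, Cxcl9, Igtp, Cxcl10, Gbp2, Gbp9, Gbp6 and Gbp8, ran from 0.90 to 2.38. Tgtp2, at 10.7 FPKM in adult and 3.04 FPKM in young liver, had a fold of 1.53 and was not called. The GTPase gene Igtp was at 86.3 FPKM in adult and 30.4 FPKM in young liver, and the chemokine gene Cxcl9 at 44.0 FPKM in adult and 12.7 FPKM in young liver. Irf1 and Socs1 stand in this list too, and Socs1 and Gbp5 passed the level filter only through their adult values. The genes listed here as Gbp6 and Gbp5 are named Gm43302 and Gbp2b in GENCODE M21. The difference between the 2 lists was not tested, since genes are no replicates.

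**Figure D5:**
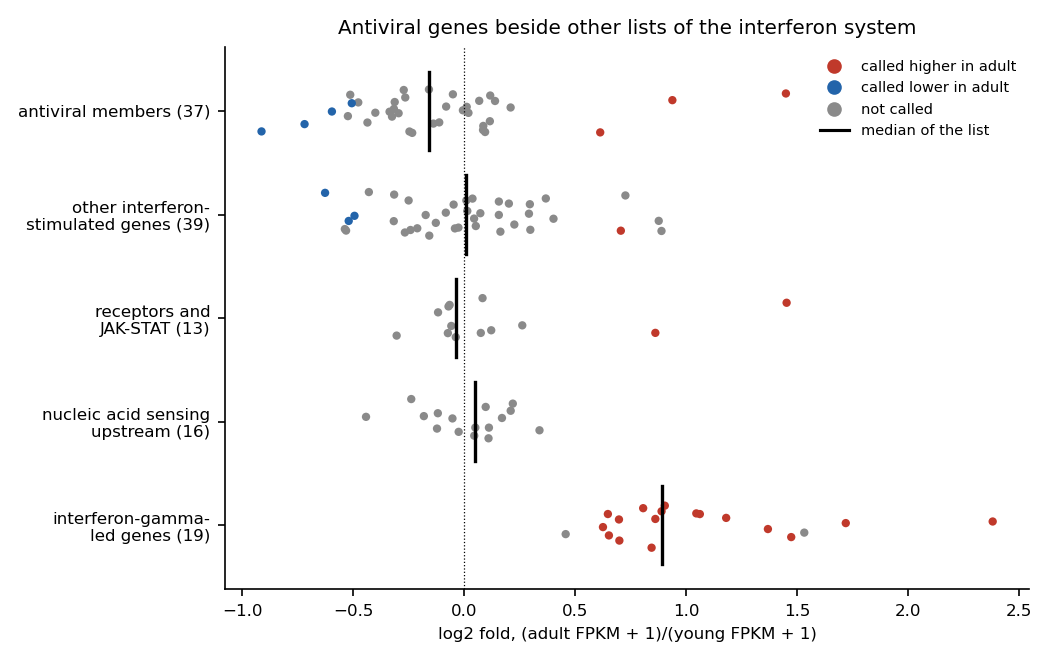
Log2 folds of the antiviral members beside other lists of the interferon system, with 1 point per gene compared, the number of genes in brackets and the median as a black line. The members and lists were chosen with earlier results of these data known. The antiviral members and the lists of receptors, sensing genes and other interferon-stimulated genes have medians from -0.16 to 0.048, while that of the interferon-gamma-led genes, of which Socs1 and Gbp5 passed the level filter only through their adult values, lies at 0.89.

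Markers of immune cells also differed between the ages. The summed level of 12 T and NK cell markers was 49.9 FPKM in adult and 8.66 FPKM in young liver, of which Ccl5 alone gave 30.0 FPKM in adult and 3.23 FPKM in young liver. Beside Ccl5, the markers Nkg7, Trac, Cd3g and Gzmb rose, but these and Cd4, which was not called, passed the level filter only through their adult values. The T cell gene Cd3e was at 0.870 FPKM in adult and 0.287 FPKM in young liver. The NK cell genes Ncr1, Klrb1c and Klrd1 were at 0.133, 0.359 and 1.49 FPKM in adult and at 0.110, 0.264 and 1.13 FPKM in young liver, and Klrd1, the one compared, was not called. The sum over 8 monocyte and neutrophil markers was 161 FPKM in adult and 113 FPKM in young liver, with Fcgr4, Lyz2 and Ccr2 risen, although Ccr2, like the uncalled Csf3r, passed the level filter only through its adult value. Lyz2 alone gave 115 FPKM in adult and 82.8 FPKM in young liver. Of the 7 markers compared, 6 had folds above 0. S100a8 and S100a9 were not called, at 9.59 and 7.58 FPKM in adult and at 10.9 and 7.46 FPKM in young liver. The sum over 6 B cell markers was 92.2 FPKM in adult and 57.3 FPKM in young liver, with Ighm and Igkc of 3 risen. The sum over 12 Kupffer cell and macrophage markers was 478 FPKM in adult and 417 FPKM in young liver, with Marco and Cd5l of 12 risen and 5 of 12 folds below 0. Among these 5, the Kupffer cell gene Clec4f was at 57.7 FPKM in adult and 79.6 FPKM in young liver and was not called (p = 0.0327, q = 0.291, the authors' deposited table). Of 7 markers of plasmacytoid dendritic cells, which make much type I interferon, 2 were compared and neither was called by the authors' test, with 1 at an unadjusted p under 0.05, and the defining gene Siglech was at 0.275 FPKM in adult and 0.193 FPKM in young liver. The sum over 8 sinusoidal endothelial markers was 90.7 FPKM in adult and 106 FPKM in young liver, with Lyve1 and Oit3 of 8 fallen. That over 5 cholangiocyte markers was 43.5 FPKM in adult and 50.1 FPKM in young liver, with Krt19 and Krt7 fallen, both of which passed the level filter only through their young values. Sox9 of the same list, under 1 FPKM at both ages, was at 0.851 FPKM in adult and 0.747 FPKM in young liver. Of 5 hepatocyte markers compared, none was called or at an unadjusted p under 0.05. Their median fold was -0.29 and 4 of the 5 folds were below 0. Hnf4a went the other way, at 112 FPKM in adult and 106 FPKM in young liver. The sum over the 6 hepatocyte markers found, with Alb listed at 0, was 16604 FPKM in adult and 20947 FPKM in young liver. The part of these cell types in the rise of Zbp1, Ifi27 and Ifi27l2b or in the fall of Isg15, Rsad2, Ddx58 and Ifit3 was not tested.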

How the data were processed

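Liver RNA was pooled from 3 mice per library, with an RNA integrity number of at least 8, and sequenced on an Illumina NextSeq, per the labels' protocols. TopHat2 2.0.11, Cufflinks 2.2.1, Cuffdiff and the build GRCm38 are named in the submitters' processing notes. No source used here gives the annotation or the library normalization. The authors deposited 1 FPKM value per gene and age, and for each gene their own p-value and q-value. Their deposited test score and log2 fold change were not used. The smallest deposited p-value, 5e-05, is shared by many genes.

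Genes were compared with status OK and at least 1 FPKM at either age, with a pseudocount of 1, and called at a q-value under 0.05. Alternatives were q-values under 0.01 or 0.1, Benjamini-Hochberg adjustment of the deposited p-values, other FPKM minimums and pseudocounts, median centring, a wider list of sensors, and leaving out members with related copies. Left out in the last were Oas1a, Oas1b, Oas1g, Ifit1, Ifit3, Ifi27l2a, Ifi27l2b, Mx1, Mx2 and Trim30a. Nothing says that the pools came from separate litters or days. The p-values therefore judge a difference against a spread between pools, which may be technical. The members and lists were chosen with earlier results of these data known. A few listed genes are not reported here and were left out of the lists and their counts. All 41 members are named, with the receptor list, the called genes of the other lists (the 8 that moved most where more were called) and a few fixed pathway genes. Igtp, Cxcl9, Tgtp2, Cd3e, Cd4, Ncr1, Klrb1c, Klrd1, Csf3r, Clec4f, Sox9, Siglech, Ttr, Apoa1, Alb, Ifng and Ifnb1 were singled out after their values were seen. The same holds for Sp110, Slfn8, S100a8, S100a9 and Hnf4a. RefSeq promoter windows (GRCm38.p6) were searched with Python 3.11.15, pandas 2.3.3 and NumPy 2.4.6. Counting and adjustment were checked on simulated data.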

Additional observations from a re-analysis of the deposited data

How the results depend on the processing

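The count of risen members was 2 or 3 and that of fallen members 3 to 6 under every alternative tried but 1, a q-value under 0.1, where 8 members were lower and Usp18, Ifit1, Ifit2 and Ifi44 joined the fallen ones. At a q-value under 0.01, Ifit3 and Ifi27 were no longer called, and for the other interferon-stimulated genes 0 were higher and 1 lower. With no minimum FPKM, 2 of these were higher, since Gm14446, under 1 FPKM, then counts. Benjamini-Hochberg adjustment of the deposited p-values added Usp18 over all 16290 rows tested, and Usp18 and Ifit1 over the genes compared. The median of the sensors was -0.14 with 13 RNA-binding members as sensors, and that of the effectors was -0.19 without members with related copies, which leaves fewer genes. No other alternative moved a median by more than 0.1, and none reversed the fold of a member. No paired analysis was possible because the table holds 1 value per age, and for the same reason leaving out each replicate was not run. The depth behind each value is unknown, so counting error could not be given.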

Other observations

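Further copies of the antiviral families, named after their values were seen, gave these values. Beside the Ifit genes on chromosome 19, Gm14446, named Ifit1bl1 in GENCODE M21, rose but stayed under 1 FPKM, at 0.923 FPKM in adult and 0.432 FPKM in young liver (q = 0.0164, the authors' deposited table). It lies at 34592888 to 34601968, between Ifit3 and Ifit1, whose values were lower in adult liver. The copy 2010002M12Rik, named Ifit1bl2, was at 0.118 FPKM in adult and 0.104 FPKM in young liver. Trim30d, next to Trim30a on chromosome 7, was at 5.97 FPKM in adult and 4.60 FPKM in young liver, and Trim30b and Trim30c were under 1 FPKM at both ages. Of the further Oas1 copies, Oas1c was at 0.637 FPKM in adult and 0.916 FPKM in young liver, while Oas1d, Oas1e, Oas1f and Oas1h were at or near 0 at both ages.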
